A study of Mus musculus with 30 samples.

Results

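The 16 hearts described here were the antibody study of a mouse series on the amyloid beta peptide Aβ42, and they made up 16 of its 30 hearts. They comprised 8 hearts from mice given 3D6, an antibody that neutralises Aβ42, and 8 hearts from mice given a control antibody (Con), and every heart labelled with either antibody was included. All were left ventricles from male C57BL6 mice (C57BL6J elsewhere in the labels), profiled as total RNA, and the number in a heart's name is its mouse number. Per the study's methods the mice were assigned to antibody groups at 12 weeks of age, after a baseline heart scan, were put on a high-fat diet later, and received 3D6 or an isotype-matched control antibody by weekly injection into the peritoneum, so both groups shared the diet and the injections. The series' design text instead states that the antibody mice also received Aβ42, and the labels of single hearts give no peptide or diet, so which of these the 16 mice received cannot be settled from the labels. No heart from a mouse given neither antibody was in the same table. The question posed was whether neutralising Aβ42 changed RNA levels in these hearts, and the table allowed it to be asked for whole genes, for single transcripts, and for the share of a gene's RNA that each transcript took.

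Aβ42 is cut from the amyloid precursor protein by secretases, and the antibody acts on the released peptide outside the cell rather than on the RNA of its precursor. Most heart genes give rise to several transcripts through alternative exons, promoters or ends. In cardiac muscle such choices alter the elasticity of titin, the calcium response of troponin T and the transport of phosphate into mitochondria, so a heart can change which transcripts it makes while the total for the gene stays level. The values were Salmon estimated counts, in which a read that matches several transcripts of a gene is divided among them by a model. The count of one transcript is therefore an estimate that borrows from its sister transcripts, whereas the sum over the gene is not affected by how reads were divided within it.

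The table listed 142647 transcripts of 55263 genes, of which 20969 genes had at least 2 transcripts. The 3D6 libraries held 6831327 to 8310478 estimated counts (median 6987328.5) and the Con libraries 6397192 to 7257850 (median 6956051.5). Markers of ventricular cardiomyocytes were high in every heart, at a summed level of 49921 to 60659 CPM (counts scaled to the library's effective size) in the 3D6 hearts and 49922 to 63290 in the Con hearts. Markers of atrial cardiomyocytes varied far more, from 2.09 to 1582 CPM in the 3D6 hearts and from 11.7 to 6622 in the Con hearts, with the highest value in Con_15. One control heart, Con_22, stood apart from the rest. It had the lowest share of counts on the mitochondrial genome, 25.9%, and among all 16 hearts the highest summed markers of fibroblasts (2533 CPM), endothelial cells (1889 CPM), B and plasma cells (20.7 CPM), red blood cells (2701 CPM) and neural cells (19.6 CPM). With counts on the nuclear copies of mitochondrial genes (described below) added, the mitochondrial share of Con_22 was 38.9%, close to the 39.0% of Con_15. The share calls and the medians of several gene lists are therefore given with and without Con_22. The log2 fold changes of most single genes are given with all 16 hearts only, including genes with an extreme value in Con_22. None of the 13 marker lists held a marker at 0 in every heart, and whether tissue make-up played a part in any result was not tested. In bulk tissue, fewer cells of a type and less RNA per cell cannot be told apart.

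At the level of whole genes, no difference between 3D6 and control hearts passed the test. Of 12146 genes that averaged 10 counts or more per heart, 0 (0%) had an adjusted p under 0.05 (edgeR quasi-likelihood test, Benjamini-Hochberg adjusted), and the smallest adjusted p was 0.944. Before adjustment, 444 genes (3.66%) had a p under 0.05. The 3D6 hearts were higher for 157 of them (1.29%) and lower for 287 (2.36%). That split turned to 282 higher and 262 lower when each heart's mitochondrial share of counts was a covariate, and to 86 higher and 441 lower when libraries were scaled to their total count. Here and below this covariate is the share on the mitochondrial genome alone, without its nuclear copies. DESeq2 also called 0 genes, with 447 at an unadjusted p under 0.05, and limma-voom called 0, with 431. Leaving out a single heart moved the number at an unadjusted p under 0.05 from 256 without 3D6_4 to 765 without Con_8, and no gene was called in any of these fits. In no gene, transcript or share (0%) did the 8 hearts of one group lie wholly above the 8 of the other.

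The size of the spread bounds what could have been seen. The median standard error of a log2 fold change (3D6 minus Con) was 0.14, and 90% of genes lay between -0.31 and 0.24. The 95% confidence interval lay within 1 log2 unit of zero for 11731 genes (96.6%) and within 0.5 for 8049 (66.3%). A change of 1 log2 unit in RNA level thus lay outside the unadjusted interval of nearly all tested genes, whereas changes much smaller than 0.5 log2 units were not resolved at this number of hearts.

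The genes with the smallest p-values in each direction show what the first-ranked differences looked like. Ttc7, which encodes a scaffold of the kinase complex that makes a phosphoinositide at the plasma membrane, had 23.7 (lowest), 25.4 (median) and 28.9 (highest) CPM in the 3D6 hearts and 18.2, 20.2 and 24.7 in the Con hearts. The 3D6 hearts sat higher and the groups overlapped only at the edge (log2 fold change 0.31 ± 0.08 SE, adjusted p = 0.944 in edgeR). Acsm5, a mitochondrial enzyme that activates medium-chain fatty acids, had 6.99, 11.6 and 16.8 CPM in the 3D6 hearts against 4.46, 8.11 and 10.2, a log2 fold change of 0.69 ± 0.20 SE. Ap3s2, a subunit of an adaptor that sorts proteins towards lysosomes, had 19.8, 22.5 and 25.0 CPM against 14.7, 18.5 and 21.2. Here too the medians were further apart than the overlap of the ranges, and the log2 fold change was 0.30 ± 0.09 SE. The other first-ranked higher genes were the gene models Gm38393, at 0.847, 1.99 and 3.98 CPM against 0.546, 0.806 and 1.88, and Gm10635, with a log2 fold change of 1.05 at a similarly low level.

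In the other direction, Snx1, a sorting nexin of the retromer that recycles membrane cargo from endosomes, had 11.1, 13.2 and 14.8 CPM in the 3D6 hearts and 14.2, 16.2 and 17.8 in the Con hearts. The 3D6 hearts were lower with a narrow overlap, and the log2 fold change was -0.29 ± 0.08 SE. Timm9, a chaperone that carries proteins to the mitochondrial inner membrane, had 4.65, 5.79 and 7.35 CPM against 5.79, 8.05 and 10.6, a log2 fold change of -0.45 ± 0.13 SE. The orphan receptor gene Gpr153 (log2 fold change -0.34), Ccdc174 (-0.33) and the gene model Gm42688 (-0.73) completed the 5 first-ranked lower genes. Every one of these 10 genes had an adjusted p of 0.944, so their ranks separate them from other genes by less than the multiple testing of 12146 genes allows.

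Gene lists for cardiac metabolism, contraction, matrix, immunity and amyloid handling were then read by their counts. Together 17 lists held 404 genes, of which 390 were tested, and 14 of those (3.59%) had an unadjusted p under 0.05, 7 in each direction, against 3.66% of all genes. No list gene had an adjusted p under 0.05. The interval of 376 listed genes lay within 1 log2 unit of zero, and that of 258 within 0.5. The median log2 fold change of the listed genes was -0.04, beside -0.01 for all genes.

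Within fuel metabolism, the enzymes of fatty acid oxidation sat slightly above zero as a list. Of 26 tested genes 25 were higher and 1 lower in the 3D6 hearts, with a median log2 fold change of 0.15, which was 0.11 without Con_22 and 0.11 with the mitochondrial covariate. Of these, 5 had an unadjusted p under 0.05 in the edgeR fit, all higher, beside 1.29% of all genes in that direction, and those named here other than Acot1 were chosen after their values were seen. Acot1, which hydrolyses long-chain acyl-CoA, had 27.0, 32.0 and 52.0 CPM in the 3D6 hearts and 19.2, 25.5 and 38.0 in the Con hearts. The 3D6 median was higher while the ranges overlapped from 27.0 to 38.0 CPM, with a log2 fold change of 0.43 ± 0.16 SE (adjusted p = 0.944 in edgeR). Among the others were Ucp3, a mitochondrial uncoupling protein of muscle (log2 fold change 0.40), Cpt2, which reloads fatty acids onto CoA inside the mitochondrion (0.19), and Eci2, an isomerase for unsaturated fatty acids (0.19). Fabp3, the fatty acid carrier of cardiac muscle, was far more abundant and had 2435, 2963 and 3471 CPM against 2289, 2907 and 3281, a log2 fold change of 0.05.

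The pyruvate dehydrogenase list had 11 of 13 genes higher with a median of 0.15 (0.10 without Con_22, 0.04 with the mitochondrial covariate), and the TCA cycle list 17 of 21 with a median of 0.11 (0.06 in either of these fits), and neither held a gene with an unadjusted p under 0.05. Pdk4, the kinase that shuts pyruvate dehydrogenase off when fat is burned, spread widely at 239, 530.4 and 1043 CPM in the 3D6 hearts and 180, 449.6 and 796 in the Con hearts. Its groups overlapped from 239 to 796 CPM, with a log2 fold change of 0.52 ± 0.30 SE (adjusted p = 0.944 in edgeR). Pdp1, the phosphatase that switches the same complex on, had a log2 fold change of 0.27, and Pdha1, its catalytic subunit, 0.21. Among TCA cycle genes, Idh3a had 367, 386.7 and 401 CPM against 212, 367 and 406, a log2 fold change of 0.17. The low end of the Con range was Con_22, which also had the lowest CPM of all 16 hearts for Ogdh, Pdha1, Pdk4 and the calcium pump gene Atp2a2. Ogdh, the first enzyme of the 2-oxoglutarate dehydrogenase complex, had 1914, 1987 and 2426 CPM against 985, 1969 and 2364. Its log2 fold change of 0.11 became -0.02 with the mitochondrial covariate, and for Idh3b the value of -0.09 became 0.03.

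The respiratory chain lists lay on opposite sides of zero. The 13 proteins encoded on the mitochondrial genome had 12 genes higher and 1 lower with a median of 0.14, while 36 nuclear subunits of complex I, the NADH dehydrogenase, had 3 higher and 33 lower with a median of -0.12. Both medians moved towards zero with Con_22 left out, to 0.10 and -0.02, and with the mitochondrial covariate they were 0.02 and 0.05, so the complex I median changed sign. That covariate is built largely from the counts of the 13 mitochondrial genes themselves, so the fall of their own median was largely set in advance. Neither list held a gene with an unadjusted p under 0.05. mt-Co1, the catalytic subunit of cytochrome oxidase, had 107620, 125780 and 153470 CPM against 63976, 117716 and 150091, with a log2 fold change of 0.14. mt-Atp6, a subunit of the proton channel of ATP synthase, had a log2 fold change of 0.21. Ndufa13, the accessory complex I subunit furthest below zero, had 165, 284.4 and 386 CPM against 173, 278.4 and 658, the last in Con_22. Its log2 fold change of -0.30 became 0.03 with the mitochondrial covariate.

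The 43 cytosolic ribosomal protein genes all had a log2 fold change below zero, each by less than the test could call. Their fitted levels were lower in 3D6 hearts, with a median log2 fold change of -0.17 and none at an unadjusted p under 0.05. The median was -0.05 without Con_22 and 0.04 with the mitochondrial covariate. Rpl3, the one with the smallest p, had 50.5, 81.2 and 99.9 CPM in the 3D6 hearts and 69.0, 91.8 and 126 in the Con hearts (log2 fold change -0.29 ± 0.14 SE, adjusted p = 0.944 in edgeR). The lowest 2 values were in 3D6_4 and 3D6_12 and the highest 2 in Con_22 and Con_15, with the other hearts intermixed.

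The contractile and calcium lists straddled zero. Of 21 sarcomere genes 6 were higher and 15 lower with a median of -0.06, and of 20 calcium-handling genes 13 were higher and 7 lower with a median of 0.08. With the mitochondrial covariate these medians were 0.01 and -0.02, and without Con_22 -0.04 and 0.02. Myh6, the adult myosin heavy chain, had 23283, 26564 and 27504 CPM against 23896, 25396 and 29729, a log2 fold change of 0.02 that was -0.03 under total-count scaling. Tnnc1, troponin C, had a log2 fold change of -0.24. Atp2a2, the calcium pump of the sarcoplasmic reticulum, had 5971, 6946 and 12497 CPM against 2455, 7323 and 11050, so that the Con median was higher while the log2 fold change of the fitted means was 0.26. Cacna2d1, an auxiliary subunit of the calcium channel, had 88.7, 120 and 188 CPM against 78.1, 86.0 and 150, with a log2 fold change of 0.35 ± 0.17 SE and substantial overlap. The glycolysis list (6 higher and 15 lower of 21) had a median of -0.02, its lowest member being the phosphofructokinase gene Pfkp at -0.26.

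The stress and hypertrophy list held a marker that varied widely between hearts of both groups. Nppa, the atrial natriuretic peptide gene, had 0.962, 87.8 and 911 CPM in the 3D6 hearts and 8.14, 29.3 and 3837 in the Con hearts. The highest value was Con_15, which also had the highest atrial markers, and the groups overlapped almost completely (log2 fold change -0.79 ± 1.28 SE, 2.27 without Con_15). Of the 17 tested stress genes 7 were higher and 10 lower with a median of -0.11, which was -0.00 with the mitochondrial covariate. The 3 with an unadjusted p under 0.05 were all lower, namely Uchl1, a deubiquitinating enzyme (5.12 median CPM against 6.50, log2 fold change -0.50), Atf3, a stress-induced transcription factor (-0.60), and Hspb1, a small heat shock protein (-0.27), Atf3 and Hspb1 being named after their values were seen. The immediate early and heat shock list had 5 higher and 18 lower with a median of -0.08. Its members at an unadjusted p under 0.05 were Jund, an AP-1 subunit, with 66.3, 83.4 and 91.7 CPM against 90.2, 92.3 and 103 (log2 fold change -0.20), and, named after their values were seen, Ier2 (-0.35), Klf4 (-0.19), Atf3 again, and Fos, which went the other way (0.86).

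In the matrix, amyloid and immune lists most members lay below zero. Collagens and matrix genes had 2 higher and 23 lower with a median of -0.09 (-0.11 without Con_22), and Mmp14, a membrane-anchored collagenase, had a log2 fold change of -0.18. Fc receptor and complement genes, which an injected antibody could engage, had 1 higher and 16 lower with a median of -0.16, -0.11 without Con_22 and -0.00 with the mitochondrial covariate. C1qb, a chain of the complement component that binds antibody, had 12.2, 23.3 and 27.5 CPM against 18.2, 24.2 and 36.9, with nearly equal medians. Genes of amyloid precursor processing and clearance had 8 higher and 15 lower with a median of -0.05. Ece1, an endothelin-converting enzyme that also degrades Aβ, had 73.3, 93.6 and 113 CPM against 89.7, 104 and 125, with a log2 fold change of -0.18 ± 0.09 SE (adjusted p = 0.944 in edgeR). None of these 3 lists held a gene at an unadjusted p under 0.05.

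The circadian list, with 14 of 19 genes higher (median 0.07), and the list of muscle splicing regulators, with 19 of 30 higher (median 0.02, and -0.03 under total-count scaling), held 1 gene each at an unadjusted p under 0.05. Nfil3, a repressor of clock output genes, was lower (5.64, 6.76 and 8.34 CPM against 6.74, 8.54 and 10.52). Rbfox1, a splicing factor of heart and brain, was higher (17.2, 22.6 and 40.1 CPM against 11.2, 18.7 and 24.5, log2 fold change 0.43 ± 0.19 SE). The clock gene Nr1d1 stayed within a narrow band in both groups, 149 to 168 CPM against 140 to 160, with a log2 fold change of 0.07, and Vegfa, an angiogenic growth factor, had -0.22. The heart genes listed for their alternative transcripts had 27 higher and 12 lower with a median of 0.07, which was 0.03 without Con_22 and -0.01 with the mitochondrial covariate.

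**Figure D1:**
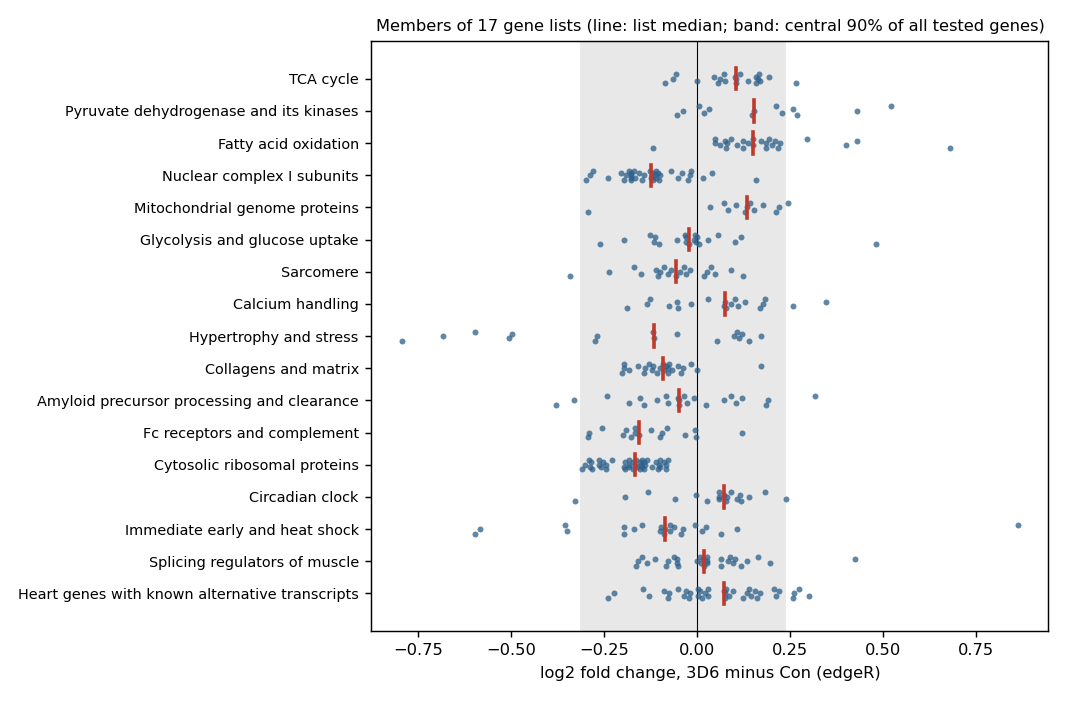
Log2 fold change (3D6 minus Con, edgeR) of each tested member of the 17 gene lists; each point is a gene, the red line is the list median and the grey band holds the central 90% of all tested genes, from -0.31 to 0.24. List medians lie between -0.17 and 0.15, and most members lie inside the band.

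Testing single transcripts gave the same overall answer with a wider error. Of 20857 transcripts that averaged 10 counts or more, 0 (0%) had an adjusted p under 0.05 in edgeR (smallest adjusted p = 0.9998), while 500 (2.4%) passed that mark before adjustment, 200 (0.959%) higher and 300 (1.44%) lower. The split was 452 higher and 255 lower with the mitochondrial covariate, and 127 higher and 419 lower under total-count scaling. The median standard error was 0.29, larger than the 0.14 of whole genes. The interval lay within 1 log2 unit for 57.4% of transcripts and within 0.5 for 26.9%. Of the tested transcripts 14107 were above 0 in every heart, while 1236 (5.93%) were at 0 in 8 or more of the 16 hearts.

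DESeq2 called 9 transcripts where edgeR called 0 and limma-voom called 0 (663 at an unadjusted p under 0.05). Of the 9, 8 transcripts, named after their values were seen, were at 0 in 13 or 14 of the 16 hearts (Per1-206, Kmt2d-202, Sptan1-204, Slu7-206, Ptp4a1-206, Rab1a-206, Gga1-203 and Pa2g4-201), so that 2 or 3 hearts decided each of them. The ninth was Uap1-201, which was counted in every heart and also had the smallest p of all transcripts in edgeR.

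Uap1 makes UDP-N-acetylglucosamine, the sugar donor for glycoproteins, hyaluronan and the O-GlcNAc mark on heart proteins. Its 3 tested transcripts on chromosome 1 (minus strand, GRCm38) differ in an internal coding exon. Uap1-203 carries all 51 bases of it at chr1:170147996-170148046, Uap1-201 starts the exon 3 bases later and keeps 48, and Uap1-202 leaves the exon out. Their reading frames hold 522, 521 and 505 codons. The exon as annotated by GENCODE is printed because the first-ranked transcript difference turns on it, with the 3 bases that Uap1-201 lacks in capitals:
Uap1 exon: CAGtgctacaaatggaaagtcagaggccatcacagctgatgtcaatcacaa
Because the start of this exon is what sets the coding sequence of Uap1-201 apart from that of Uap1-203, reads that cross the exon's start bear directly on the division between them.

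Uap1-201 had 4.02, 6.01 and 8.61 CPM (lowest, median, highest) in the 3D6 hearts and 0.680, 1.96 and 4.13 in the Con hearts. All 3D6 hearts but 3D6_16 were above every Con heart, and 3D6_16 (4.02 CPM) was below only Con_15 (4.13 CPM). The log2 fold change was 1.57 ± 0.35 SE (adjusted p = 0.9998 in edgeR), and DESeq2 gave an adjusted p of 0.00809. Over the other alternatives run with all 16 hearts the adjusted p lay between 0.486 (no filter on low counts) and 1. Without any single heart the log2 fold change stayed between 1.44 and 1.80, with an adjusted p of at least 0.993 in edgeR. The sum over the gene did not differ beyond its spread: Uap1 had 26.1 ± 2.43 CPM (SD, n = 8) in the 3D6 hearts and 24.8 ± 3.39 in the Con hearts, a log2 fold change of 0.07 ± 0.09 SE.

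As a share of all Uap1 counts, Uap1-201 took 15.0%, 24.4% and 31.3% in the 3D6 hearts and 2.70%, 8.66% and 15.8% in the Con hearts. Uap1-203, with the full exon, took 49.3%, 56.4% and 79.3% against 58.4%, 70.2% and 76.5%, and Uap1-202, without it, 1.84%, 16.4% and 25.5% against 12.5%, 23.2% and 27.1%. The 3D6 hearts thus had the higher median share for Uap1-201 and the lower medians for both sister transcripts, whose ranges overlapped widely. The test of the share itself did not pass in edgeR (log2 change relative to the gene 1.49, adjusted p = 0.99998), nor with limma's diffSplice (adjusted p = 0.272), with a spread estimated per transcript in edgeR (adjusted p = 0.398) or with limma on log2 ratios of shares (adjusted p = 0.982). A two-sided exact permutation test of the percent of Uap1 counts on Uap1-201 gave p = 0.000311 (adjusted p = 0.00249). That adjustment ran over 8 values added after seeing the data. Since Uap1-201 was singled out as first of 20857 ranks in these same hearts, that p-value is no independent evidence. The values of Uap1-201 are therefore a description.

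**Figure D2:**
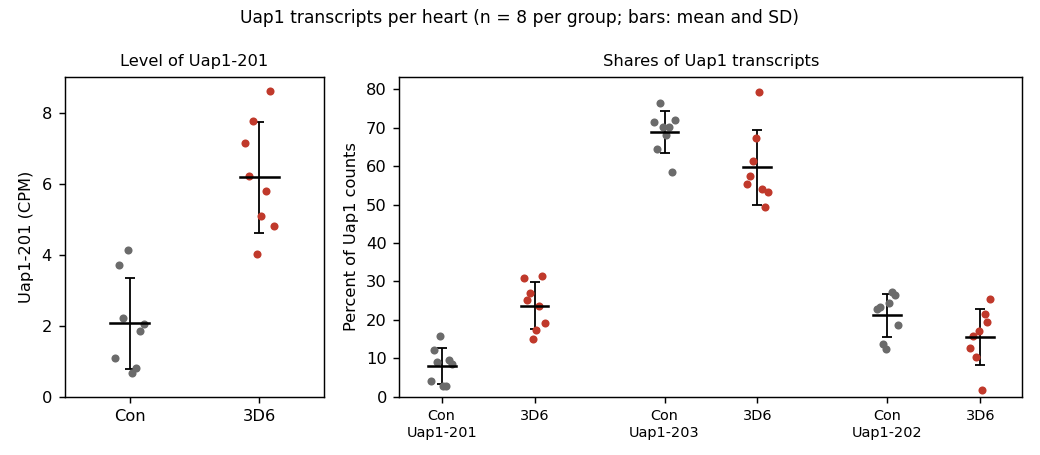
Level of Uap1-201 in CPM (left) and percent of Uap1 counts on each of its 3 transcripts (right); each point is a heart, 8 per group, and the bars are the mean and SD. Uap1-201 runs from 4.02 to 8.61 CPM in the 3D6 hearts and from 0.680 to 4.13 in the Con hearts, so the groups meet only at their edges.

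The other first-ranked transcripts had log2 fold changes from -1.74 to 0.89, where a fold can be given. Rps6ka5-209, of the stress-activated kinase MSK1, had 5.63, 7.58 and 10.6 CPM against 3.13, 5.17 and 5.67, a log2 fold change of 0.72 ± 0.18 SE. Only the lowest of the 3D6 range fell within the Con range. Ash2l-210, of a subunit of histone H3 lysine methyltransferase complexes, had a log2 fold change of 0.59, Siae-204, of a sialic acid esterase, 0.89, and Gcc1-202, of a Golgi tethering protein, 0.57. Among the lower ones, Rps12-208, of a small-subunit ribosomal protein, had 0.487, 2.13 and 3.11 CPM against 1.65, 5.50 and 10.4, a log2 fold change of -1.74 ± 0.46 SE, with 3D6 medians lower and the ranges overlapping. Arap3-207, of a GTPase-activating protein of vessels, had a log2 fold change of -0.90, Rassf2-202 -0.55, and Cstf1-201, of a factor that cleaves RNA before the poly(A) tail is added, -0.31. Acot7-201 was at 0 in all 8 3D6 hearts and at 0 to 23.04 CPM in the Con hearts (median 6.38), so no fold is given for it. Each of these had an adjusted p of 0.9998 in edgeR.

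In the edgeR tests, the share that each transcript took of its gene was the one level at which calls were made. Of 14060 tested transcripts in 5019 genes, 33 (0.235%) had an adjusted p under 0.05 by edgeR's diffSpliceDGE, 7 (0.0498%) with a higher and 26 (0.185%) with a lower share in the 3D6 hearts. Combined per gene by the Simes method, 25 genes (0.498%) were called, and 124 (2.47%) had an unadjusted Simes p under 0.05. The calls were transcripts that were counted in a few hearts and at 0, after rounding to whole counts, in the rest. All 33 were at 0 in at least 9 of the 16 hearts, 28 were at 0 in every heart of one group (21 in all 3D6 hearts, 7 in all Con hearts), and 10 were counted in a single heart. By comparison 8.53% of all share-tested transcripts were at 0 in 8 or more hearts. No fold is given for transcripts that were at 0 throughout a group.

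Of the 7 with a higher share, Tug1-203, a transcript of a long non-coding RNA that partners chromatin repressors, had the smallest adjusted p (edgeR, 0.000308). It had 50.9 counts in 3D6_4, 73.6 in 3D6_7, 52.7 in 3D6_12 and 37.2 in 3D6_16, and 0 in the other 4 3D6 hearts and all Con hearts. In the same 4 hearts, and in no other, Ctnnb1-214, of beta-catenin, had 210.3, 143, 251.3 and 61 counts (adjusted p = 0.00676). These 4 are the 3D6 hearts with the lowest mouse numbers. Kmt2d-202, of a histone H3 lysine 4 methyltransferase needed in heart development, had 129.1 counts in 3D6_4, 274.1 in 3D6_12 and 167.4 in 3D6_21 (adjusted p = 0.00793). Syne2-201, of nesprin-2, was counted in 3D6_4 and 3D6_12, Slu7-206, of a splicing factor, in 3D6_4, 3D6_20 and 3D6_21, Ccpg1-203, of an endoplasmic reticulum autophagy receptor, in 3D6_17 and 3D6_24, and Ktn1-221, of kinectin, in 3D6_7 and 3D6_12. So each of the 7 was absent from at least 4 of the 8 3D6 hearts. The totals for their genes did not follow: Tug1 had 34.3 ± 3.77 CPM (SD, n = 8) in the 3D6 hearts against 32.8 ± 4.62, and Kmt2d 83.2 ± 13.8 against 89.7 ± 17.4.

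Of the 26 with a lower share, 22 were highest in Con_22. Acadvl-201, of the first enzyme of very-long-chain fatty acid oxidation, had 2038.6 counts in Con_22 beside 63.7 in Con_18, 67.9 in Con_19 and 30.4 in Con_23, and 24.2, 13.6 and 19.3 in 3D6_7, 3D6_16 and 3D6_24 (adjusted p = 0.000432). Ndufv1-207, of the complex I subunit that binds NADH, had 726.8 counts in Con_22 and 0 in every other heart. Fastk-202 (279.2 counts), Txnip-204, of a brake on glucose uptake (272.8), and Eno3-206, of muscle enolase (228.8), were also counted only in Con_22. Actn2-203, of the Z-disc protein alpha-actinin and named after its values were seen, had 2177 counts there beside 11.6 in Con_11 and 15.9 in Con_23. Acot7-201 was counted in 5 Con hearts, at 61.9 in Con_8, 37.2 in Con_15, 62.2 in Con_19, 160.8 in Con_22 and 56.3 in Con_23, and in no 3D6 heart. Agrn-202, of the basement membrane proteoglycan agrin, was counted in 4 Con hearts with 357.3 in Con_22, Git2-212 in 3, Pde4dip-208, of myomegalin, in 2, and Ank1-202, of ankyrin-1, in Con_18 alone with 210.7. For 21 of the 33 calls more than 50% of all counts lay in Con_22. This heart was also the highest for 3046 (21.7%) of all share-tested transcripts, and 3D6_12 came next with 2338.

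Without Con_22, 8 transcripts were called, 5 higher and 3 lower, and 6 of these were among the 33: Tug1-203, Ctnnb1-214, Kmt2d-202, Acot7-201, Agrn-202 and Ank1-202. The other 2, Myh14-203 and Ryr2-202, are named after their values were seen. Of the 33, 13 still had enough counts to be tested. The calls fell to 0 when a transcript had to be counted in at least 8 hearts (99 at an unadjusted p under 0.05 among the 12874 left), and to 0 with at least 10 counts in every heart (73). They also fell to 0 with limma's diffSplice (783), with limma on log2 ratios of shares (454), and with a spread estimated for each transcript in edgeR (174). With the mitochondrial covariate 21 were called, 18 higher and 3 lower, which turned the split around.

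**Figure D3:**
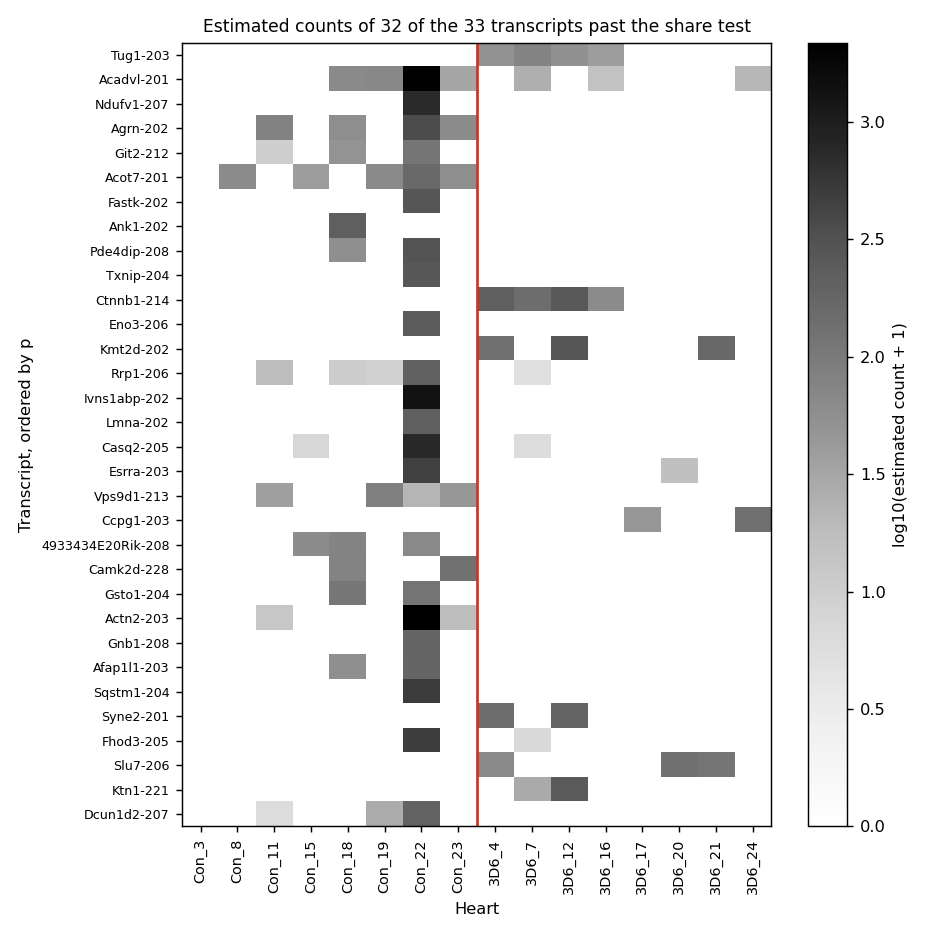
Estimated counts of 32 of the 33 transcripts called for their share, one row per transcript and one column per heart, on a log10(count + 1) colour scale. Most rows are at 0 in most hearts, and 21 of the 25 rows shown with a lower share in 3D6 hearts are highest in the column of Con_22.

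Over the tested transcripts as a whole, group differences of share were mostly smaller than their error. The mean share of a transcript differed between groups by a median of 2.53 percentage points, against a median standard error of 4.37, and 70.4% of transcripts differed by under 5 points. The spread among hearts of one group was larger, with a median SD of 8.75 points. The transcript with the largest mean share was the same in both groups for 4579 genes and another one for 440, and 2219 genes (44.2%) had the same leading transcript in all 16 hearts. Averaged over genes, the leading transcript took 71.0% of its gene's counts in the 3D6 hearts and 71.1% in the Con hearts (exact permutation test, two-sided p = 0.751).

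The 40 heart genes known for their alternative transcripts were read in the same way. Of these, 38 had at least 2 tested transcripts, 213 in all, and 20 kept one leading transcript in all 16 hearts. Of the 213, 4 (1.88%, beside 1.32% of all transcripts, 0.356% higher and 0.96% lower) had an unadjusted p under 0.05 in edgeR, all with a lower share, and the median log2 change relative to the gene was 0.00. The 4, named after their values were seen, were Casq2-205, with 742.2 counts in Con_22 and under 10 in any other heart, Camk2d-228, with 75.8 counts in Con_18 and 126.1 in Con_23 alone, Mef2c-202 and Cacna1c-224. Mef2c-202 and Cacna1c-224 were each at 0 in 15 of the 16 hearts. Casq2-205 and Camk2d-228 were among the 33 share calls (adjusted p = 0.0111 and 0.0298 in edgeR).

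Several of these genes made nearly all of their RNA as one transcript. Tpm1-205, of the tropomyosin that gates myosin on the thin filament, took 91.6%, 92.6% and 93.5% of Tpm1 counts in the 3D6 hearts and 91.2%, 92.9% and 95.5% in the Con hearts. Ttn-201, of the sarcomere spring titin, took 91.9%, 92.6% and 94.6% against 92.1%, 92.8% and 94.1%. Ryr2-201, of the calcium release channel, took 86.8%, 88.2% and 90.5% against 86.2%, 88.7% and 94.0%. In all 3 the medians lay within 1 percentage point of each other and the ranges overlapped.

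Other genes divided their RNA more evenly and varied more between hearts. Tnnt2-201, of cardiac troponin T, took 44.6%, 50.2% and 62.3% against 47.0%, 54.1% and 66.5%, and Ldb3-203, of a Z-disc protein, 51.5%, 59.9% and 64.2% against 51.03%, 58.9% and 65.6%. Atp2a2-202, of the calcium pump, took 64.4%, 83.4% and 86.8% against 67.2%, 82.2% and 88.3%, so both groups held hearts with a low share.

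In 2 genes the lowest share was Con_22. Slc25a3-206, of the mitochondrial phosphate carrier, took 88.1%, 89.1% and 90.8% in the 3D6 hearts and 77.6%, 88.9% and 90.3% in the Con hearts, where the next lowest Con heart was at 86.8%. Pkm-202, of pyruvate kinase, took 50.9%, 56.2% and 64.4% against 27.8%, 55.8% and 65.3%, where the next lowest was at 48.9%. The other 7 Con hearts lay close to the 3D6 hearts for both. None of the leading transcripts named here had an adjusted p below 0.99998 in edgeR.

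**Figure D4:**
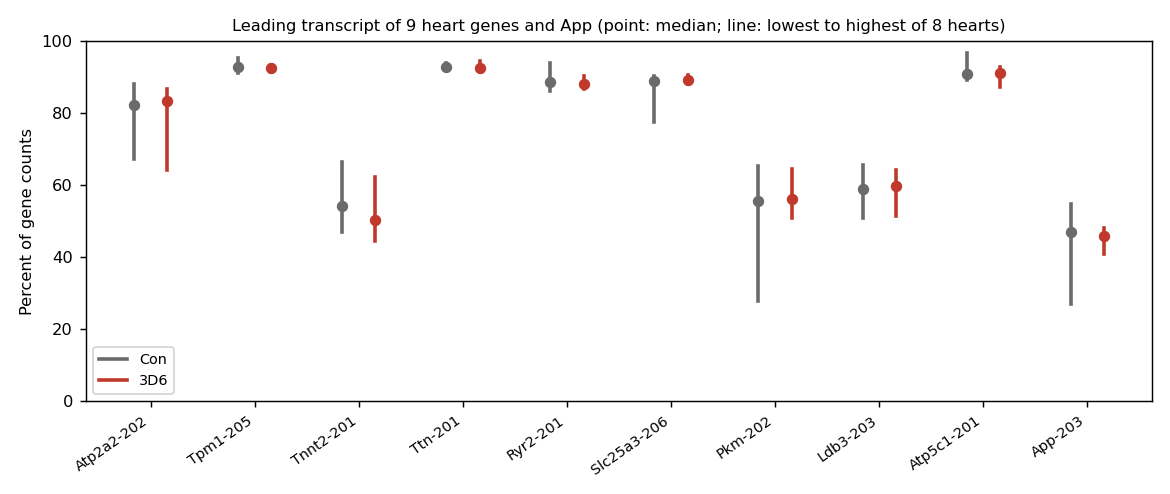
Percent of gene counts on the leading transcript of 9 heart genes and App, Con in grey and 3D6 in red; the point is the median and the line runs from the lowest to the highest of 8 hearts. The lines of the groups overlap for every gene shown, and the low ends of the Con lines for Slc25a3 (77.6%) and Pkm (27.8%) are Con_22.

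App, the gene of the amyloid precursor protein from which Aβ42 is cut, was examined by exon because its transcripts differ in named segments. The level of the whole gene was 125, 144.6 and 160 CPM in the 3D6 hearts and 135, 148.2 and 175 in the Con hearts, with a log2 fold change of -0.08 ± 0.08 SE (95% confidence interval -0.24 to 0.09, adjusted p = 0.944 in edgeR). Its 5 tested transcripts on chromosome 16 (minus strand) differ in 3 exons, each a whole number of codons. The exon of 168 bases (56 codons) encodes the Kunitz-type protease inhibitor domain, which separates the forms of peripheral tissues from the main neuronal form. They are printed from the GENCODE transcript App-206, which holds all 3, because the shares below are sums over the transcripts that carry each:
App 168-base exon, chr16:85043576-85043743: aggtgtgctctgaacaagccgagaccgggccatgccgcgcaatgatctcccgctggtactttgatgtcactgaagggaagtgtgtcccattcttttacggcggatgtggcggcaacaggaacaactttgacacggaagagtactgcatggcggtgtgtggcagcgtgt
App 57-base exon, chr16:85040251-85040307: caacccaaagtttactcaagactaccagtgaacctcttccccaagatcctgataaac
App 54-base exon, chr16:84971408-84971461: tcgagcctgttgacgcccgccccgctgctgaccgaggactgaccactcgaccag
App-206 encodes 770 codons with all 3 exons, App-203 752 codons without the 54-base exon, App-202 751 without the 57-base exon, App-204 733 without both of these, and App-201 695 without the 168-base and 57-base exons.

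Most cardiac App RNA carried the inhibitor exon in both groups. Transcripts with the 168-base exon took 82.8%, 88.7% and 91.5% of App counts in the 3D6 hearts and 82.6%, 89.1% and 93.6% in the Con hearts, with nearly equal ranges (two-sided exact permutation p = 0.466, adjusted p = 0.552 over 8 values). The 57-base exon was in 44.9%, 50.3% and 51.3% against 32.9%, 50.6% and 59.6% (exact permutation p = 0.955). The 3D6 hearts lay inside the wider Con range, whose lowest value was Con_22. The 54-base exon, near the junction with the membrane, was in 37.6%, 44.1% and 51.8% against 39.9%, 47.2% and 53.2% (exact permutation p = 0.327, adjusted p = 0.523).

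Among single transcripts, App-203 took the largest share, 40.9%, 45.8% and 48.3% in the 3D6 hearts and 27.0%, 46.9% and 54.7% in the Con hearts, and App-202 came next with 20.6%, 30.8% and 39.1% against 17.4%, 33.3% and 39.6%. App-201, the form without the inhibitor exon, took 8.35%, 10.99% and 16.4% against 5.79%, 10.3% and 14.8%. App-206 took 2.61% to 4.37% against 3.10% to 5.96%. App-204 was listed at 0 in 7 of the 16 hearts and reached 20.7% in the 3D6 hearts and 32.3% in the Con hearts, so its estimate varied widely within both groups. None of the 5 had an adjusted p below 0.99998 in edgeR.

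The make-up of the libraries by transcript class was also compared, because a change in splicing or decay could show as more retained introns or more transcripts marked for nonsense-mediated decay. None of 13 values passed an exact permutation test over all 12870 ways of dividing the 16 hearts (two-sided, smallest adjusted p = 0.606 by Benjamini-Hochberg over the 13). Retained-intron transcripts took 1.24%, 1.61% and 1.75% of counts in the 3D6 hearts and 1.25%, 1.51% and 3.05% in the Con hearts (exact p = 0.500). Transcripts marked for nonsense-mediated decay took 0.758%, 0.867% and 0.928% against 0.770%, 0.861% and 1.34% (exact p = 0.341). In both classes the highest value was Con_22 and the medians were nearly equal. The number of transcripts with at least 10 counts was 19109, 20112 and 21173 against 18726, 20121.5 and 20945 (exact p = 0.912), and protein-coding transcripts took 82.3%, 83.3% and 87.2% against 76.9%, 83.9% and 86.4%.

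The mitochondrial genome took 30.6%, 33.2% and 37.8% of counts in the 3D6 hearts and 25.9%, 31.2% and 37.7% in the Con hearts, a difference of 1.92 ± 1.52 percentage points (SE, exact permutation p = 0.226, adjusted p = 0.606). Its ribosomal RNAs ran the other way, at 1.17%, 1.79% and 1.96% against 1.64%, 1.90% and 2.31%, the smallest p of the 13 (exact p = 0.107). The groups overlapped in both. The 10 most counted transcripts took 36.5%, 38.3% and 41.9% against 32.9%, 37.2% and 41.6% (exact p = 0.208).

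Part of the mitochondrial RNA was booked on chromosome 1. A row of 7 annotated pseudogenes on the minus strand between positions 24611535 and 24616197 (GRCm38) are copies of a stretch of the mitochondrial genome. Over their own length Gm28439, Gm10222, Gm28437, Gm10925 and Gm28661 have 0 mismatches to mt-Nd4, mt-Nd4l, mt-Co3, mt-Atp6 and mt-Co2, Gm28438 has 1 mismatch to mt-Nd3 in 345 bases, and Gm29216 has 6 to mt-Co1 in 492. Over the copies with 0 mismatches, reads can therefore not be told apart by sequence from those of the matching genes. For Gm28438 and Gm29216 only reads that cross a mismatch can be. The copies took 7.34%, 9.999% and 10.95% of all counts in the 3D6 hearts and 7.84%, 9.74% and 13.0% in the Con hearts, and made up nearly all of the unprocessed-pseudogene class. The values split by mouse number rather than by antibody. Hearts of both groups numbered 3 to 16 were at 7.34% to 9.79%, and those numbered 17 to 24 at 10.2% to 13.0%. The split was seen after the fact, and what lies behind it was not tested. Of the counts on mt-Co2 and its copy together, 84.4% to 92.9% in the 3D6 hearts and 83.5% to 93.2% in the Con hearts were placed on the copy. For mt-Atp6 the copy took 63.3% to 71.5% against 56.1% to 80.6%, and for mt-Co1, whose copy differs at 6 bases, 0.0045% to 10.996% against 0.00071% to 22.02%. Summed with its copies, the mitochondrial genome took 40.8%, 43.3% and 46.1% against 38.9%, 41.3% and 45.6%, and the groups still overlapped (exact permutation p = 0.208). The levels of mt-Co2, mt-Co3, mt-Atp6, mt-Nd3 and mt-Nd4l as single genes are for this reason uncertain in both groups.

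**Figure D5:**
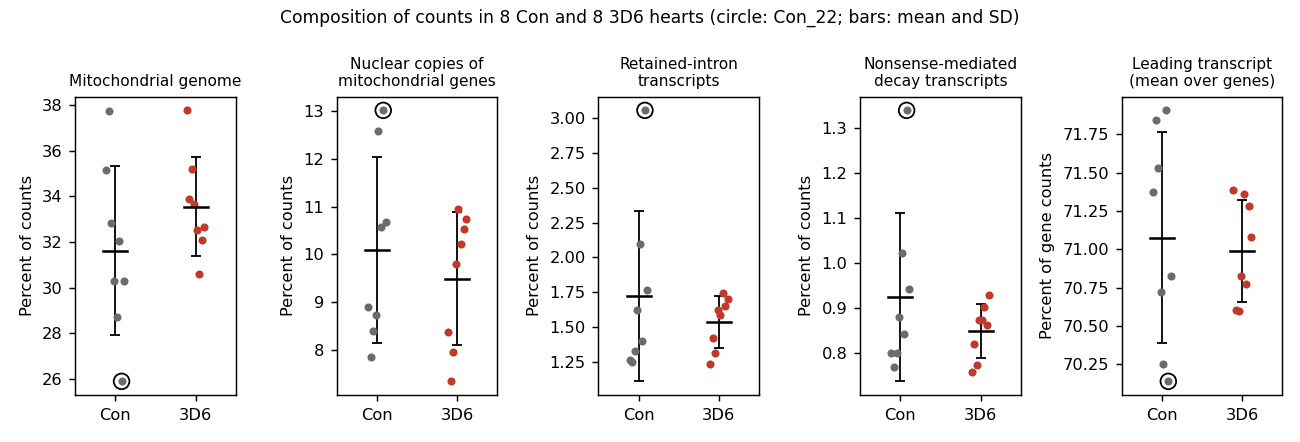
Percent of counts per heart on the mitochondrial genome, its nuclear copies, retained-intron transcripts and transcripts marked for nonsense-mediated decay, and the mean percent of gene counts on the leading transcript; each point is a heart, bars are the mean and SD, and a circle marks Con_22. The axes do not start at 0. The groups overlap in every panel, and Con_22 is lowest for the mitochondrial genome (25.9%) and highest for retained introns (3.05%).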

How the data were processed

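RNA from 16 left ventricles was sequenced as total RNA. The authors trimmed the reads and quantified them with Salmon against GENCODE transcripts of GRCm38, and deposited estimated counts per Ensembl transcript. These were rounded to whole numbers after transcripts were summed to genes by GENCODE vM21, which listed 99.2% of the transcripts (0.38% of counts were on the others). Of the values above 0, 75.2% were not whole. A mean of 10 counts was required.

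Genes and transcripts were tested with edgeR 4.0.16 (R 4.3.3; TMM scaling, quasi-likelihood) and shares with diffSpliceDGE on the same kind of fit. Benjamini-Hochberg adjustment ran over all features of a test with a threshold of 0.05. limma 3.58.1 and DESeq2 1.42.0 were alternatives. Exact permutation tests (scipy 1.17.1) compared composition. The edgeR gene and transcript tests and the share tests were run on simulated counts with known changes. There the share test as run recovered fewer changed genes and called more unchanged ones than the alternatives with a spread per transcript. The permutation tests and the other steps were not run on simulated counts. Named genes were the 5 smallest p-values in each direction of genes and of transcripts, called shares ordered by p (up to 10 in each direction), the most abundant gene and the gene with the smallest p of each list, and App, Idh3b, Nppa and Pdk4. Members and lists were chosen with earlier results of these data known. The exon shares of App and the Uap1 shares were added after seeing the data. No pair of hearts agreed within sampling noise (chi-square per degree of freedom 3.47 to 101.9), and each number is a separate mouse. The p-values measure the spread between these mice, and depth gives counting error only. The results of 2 genes that the rule or the counts would name are not reported here.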

Additional observations from a re-analysis of the deposited data

Results flagged for a closer look

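Over 208 values in groups of 8 hearts, 19 had 1 heart further from its neighbours than Dixon's 95% critical value allows. Chance flags about 1 in 20 groups. Of the 19, 14 were in Con_22, 3 in Con_15, 1 in Con_18 and 1 in 3D6_24.

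In Con_22, retained introns took 3.05% of counts (other Con hearts up to 2.10%), transcripts marked for nonsense-mediated decay 1.34% and processed transcripts 1.44%. Its summed markers were 1889 CPM for endothelial cells, 20.7 CPM for B and plasma cells and 2701 CPM for red blood cells, each above the other Con hearts. Levels that stood apart there were Acot7-201 at 23.04 CPM, Cstf1-201 at 11.9 CPM (others from 14.4) and Ndufa13 at 658 CPM (others up to 383). Shares that stood apart were Slc25a3-206 at 77.6% and its sister Slc25a3-201 at 15.5%, Pkm-202 at 27.8% and its sister Pkm-201 at 71.8%, and App-202 at 17.4%. In mouse pyruvate kinase and the phosphate carrier these are paired alternative transcripts, so each pair is 1 observation seen from both sides.

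In Con_15, atrial cardiomyocyte markers summed to 6622 CPM (other Con hearts up to 429), Nppa stood at 3837 CPM (others up to 269) and mesothelial and epicardial markers at 33.1 CPM (others up to 10.7). Con_18 had the highest Myh6, 29729 CPM, and 3D6_24 the lowest Siae-204 of the 3D6 hearts, 2.27 CPM. What sets these hearts apart was not tested.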

How the results depend on the processing

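No gene was called under any alternative run, and transcripts were called with DESeq2 only (9). The share calls did depend on the processing. Against 33 transcripts and 25 genes, 0 transcripts were called with limma diffSplice, limma on log2 ratios of shares, at least 10 counts in every heart, counting in at least 8 hearts or a dispersion per transcript, and 0 genes in the 4 of these that test genes. A mean share of at least 5% left 4 transcripts (1 higher, 3 lower) in 4 genes, and the mitochondrial covariate 21 transcripts. Leaving out a single heart gave 8 to 42 transcripts and 6 to 40 genes, with 8 and 6 without Con_22, 17 transcripts without 3D6_7, 20 without 3D6_21, and 40 and 38 genes without Con_3 and Con_8. Testing every feature with no filter on low counts gave 1168 genes and 7350 transcripts at an unadjusted p under 0.05.

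These values, gene-list medians aside, changed direction. Nppa was 2.14 with DESeq2, 0.54 with the mitochondrial covariate and -1.26 to 2.27 leaving out a heart, and Myh6 was -0.030 under total-count scaling. With the mitochondrial covariate Ogdh was -0.023, Ndufa13 0.026, Idh3b 0.031, and the log2 share change of App-203 was -0.0049. The fitted share coefficients of 4 transcripts counted in Con_22 alone also changed sign in that fit (1.52 for Ndufv1-207, 0.72 for Fastk-202, 0.63 for Txnip-204 and 0.56 for Eno3-206), and since these were at 0 in every 3D6 heart the coefficients are no folds and give no direction. Leaving out a heart gave -0.043 to 0.065 for App-203 and -0.079 to 1.19 for App-204. For the 10 most counted transcripts the difference became -0.305 points without the mitochondrial genome and -0.0682 without it and its copies, when unprocessed pseudogenes differed by 1.9e-05. Leaving out a heart, differences ran from -143 to 176 transcripts with at least 10 counts, -2.10 to 1.71 points for the 57-base App exon, -0.219 to 0.0334 for the leading transcript, -0.254 to 0.00341 for retained introns and -0.0279 to 0.0119 for lincRNA. The cause was not tested. Of the other alternatives, 2425 single values and 98 counts were scored as unchanged. That meant the same direction and side of the threshold, or for counts a change of at most 1.5 times. Gene-list medians, among the single values, were scored as unchanged if they moved by less than the spread between hearts, whatever their sign. With the mitochondrial covariate the medians changed sign for complex I (0.05), ribosomal proteins (0.04) and sarcomere (0.01). So did those for calcium handling (-0.02) and the heart genes with alternative transcripts (-0.01). In 112 other single values a named share call was lost, and 15 counts at an unadjusted p under 0.05 moved by over 1.5 times. In 2 a value newly passed. One was the level of Uap1-201 with DESeq2. The other was the percent of Uap1 counts on Uap1-203 without a heart. That percent was compared by exact permutation, among the values added after seeing the data, and was no edgeR share call. The median standard error of a log2 fold change was 0.29 for transcripts and 0.14 for genes, and the antibody groups differ in nothing the labels record but the antibody.

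The groups share no mouse number, and the labels do not say that consecutive numbers pair the mice, but each of the 8 pairs of consecutive numbers held 1 Con and 1 3D6 heart. A replicate block of these pairs was therefore added after seeing the data. Over genes, the deviations of paired hearts from their group means correlated at -0.236 to 0.4, over 0.1 in 6 of 8 pairs, and 3 of 16 hearts correlated best with their partner. Each heart was compared with the 8 hearts of the other group, so some best matches would fall on the partner by chance. Correlations of unpaired hearts are not given, and whether the numbers pair the mice was not tested. With the replicate block 0 genes (939 at an unadjusted p under 0.05) and 0 transcripts (844) were called in edgeR, with 9 share transcripts (3 higher, 6 lower) in 7 genes, and Nppa was 0.47. No composition value passed after adjustment in an exact paired permutation test (smallest adjusted p = 0.348), including mitochondrial rRNA, which was lower in the 3D6 heart of 7 of 8 pairs.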
